A study of Mus musculus with 2 samples.

Results

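The 8 genes described here, Alas1, Alas2, Alad, Uros, Urod, Cpox, Ppox and Fech, encode enzymes of heme synthesis and were taken by symbol from the 32285 genes listed in the count tables, where each has 1 entry. Heme is an iron-containing ring that hemoglobin uses to carry oxygen and that peroxidases, catalase and cytochromes use for catalysis. The pathway starts in the mitochondrion, where glycine and succinyl-CoA are joined into aminolevulinic acid by ALAS1 in most cells or by ALAS2 in erythroid cells. It then passes through the cytosol and returns to the mitochondrion, where ferrochelatase inserts iron. Marrow holds cells with unlike needs for this product: erythroblasts fill with hemoglobin, and neutrophil progenitors (proNeu) make myeloperoxidase, a heme enzyme of the primary granules encoded by Mpo. In these data 7 of the 8 members were highest in erythroid cells and Alas1 was highest in proNeu cells, in both libraries. The erythroid peak lay in erythroblasts in Ctrl and in erythroid progenitors in cKO, where the 9 erythroblasts were too few to rank. How many of all genes peak in these types was not counted. Of all genes compared between erythroid and proNeu cells, 12.7% were more than 2-fold higher in erythroid cells of both libraries and 16.7% lower.

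Single-cell RNA sequencing with unique molecular identifiers (UMIs, tags that count captured RNA molecules once) was done on bone marrow of C57BL/6 mice aged 13 to 14 weeks, with 1 library from control (Ctrl) and 1 from conditional knockout (cKO) animals. The cKO mice were Mx1-Cre Map4k4 f/f. The methods give the controls as Mx1-Cre Map4k4-/- littermates, a notation that leaves their allele unclear. Poly I:C, an interferon inducer, was used to switch on Mx1-Cre, whose interferon-responsive promoter acts in blood cells and also in other tissues. The methods describe these injections for the Map4k4 f/f mice and do not state whether the controls received them. Cells enriched on beads for c-Kit, a progenitor receptor, were mixed with marrow freed of red cells by lysis, so that enrichment and lysis set the shares of cells, and whether animals were pooled is not stated. With 1 library per genotype nothing here is replicated, and all intervals are exact 95% intervals (Poisson for sums of UMIs, Clopper-Pearson for shares) that cover counting error only.

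The Ctrl library held 10220 barcodes and 71527701 UMIs and the cKO library 6872 barcodes and 64393950 UMIs, of which 9965 and 6718 cells were kept (median 4111 and 6243.5 UMIs). The libraries shared 2949 kept barcode sequences, with no identical profile and a median correlation of 0.498 between cells with the same barcode against 0.499 between cells with other barcodes. Map4k4 itself was at 72.6 CPM (counts per 1000000 UMIs; 70.6 to 74.6) in Ctrl and 64.3 CPM (62.4 to 66.3) in cKO over all kept cells, and at 12.3 and 19.7 CPM in proNeu cells. These 3′ tags may lie outside the deleted exons and then check nothing, so that within these data the genotype rests on the labels. The paper reports, by RT-PCR, that stem and progenitor cells of its cKO mice lost the Map4k4 transcript after poly I:C.

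Cells were placed in 17 types by marker genes that hold no heme synthesis enzyme and no hemoglobin gene, although Mpo is itself a proNeu marker and Gata1 and Klf1 are erythroid markers. The erythroid progenitor type held 330 Ctrl and 84 cKO cells, the erythroblast type 95 and 9, and the proNeu type 838 and 873 (8.41% and 13.0% of kept cells). The 7 proNeu markers summed to 39495 and 47364 CPM in proNeu cells against 907 and 286 CPM in erythroid progenitors, and the 8 erythroid progenitor markers to 4202 and 4660 CPM in erythroid progenitors against 24.5 and 6.26 CPM in proNeu cells. The 7 erythroblast markers summed to 4116 and 4432 CPM in erythroblasts and to 9.07 and 2.59 CPM in proNeu cells. Secondary granule genes of later neutrophils, such as Camp and Ngp, summed to 9606 and 10551 CPM in proNeu cells and to 3106 and 2599 CPM in erythroid progenitors. In erythroblasts they summed to 8680 and 2278 CPM, which in Ctrl was more than the erythroblast markers themselves, and their part in the erythroblast values was not tested. In proNeu, 47 Ctrl and 123 cKO cells lay within 0.25 of the score that admits a cell, against 4 and 0 erythroid progenitors. Levels were compared in the 16 Ctrl and 7 cKO types with at least 50 cells, and the 9 cKO erythroblasts are given beside them.

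The first enzyme of the pathway has a gene for most cells, Alas1 (ENSMUSG00000032786, chr9:106233455-106248654 of GRCm38, minus strand), and it was the most counted member, with 14999 UMIs in Ctrl and 15653 in cKO. In proNeu cells Alas1 stood at 592 CPM in Ctrl (579 to 605) and 575 CPM in cKO (563 to 587), or 9.96 and 9.67 UMIs per cell. Cycling secondary granule neutrophils, the next stage, followed at 158 and 191 CPM. These neutrophil stages and the macrophages and monocytes of Ctrl (118 and 109 CPM) took the top of the order. Erythroid progenitors lay near the bottom at 33.2 CPM in Ctrl (28.8 to 38.1) and 26.5 CPM in cKO, and Ctrl erythroblasts at 36.7 CPM (24.6 to 52.7). Between B cells at 49.8 CPM and early B cells at 32.7 CPM no neighbors in the Ctrl order, erythroid types included, could be told apart within counting error. Plasma cells were lowest at 15.6 CPM.

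**Figure D1:**
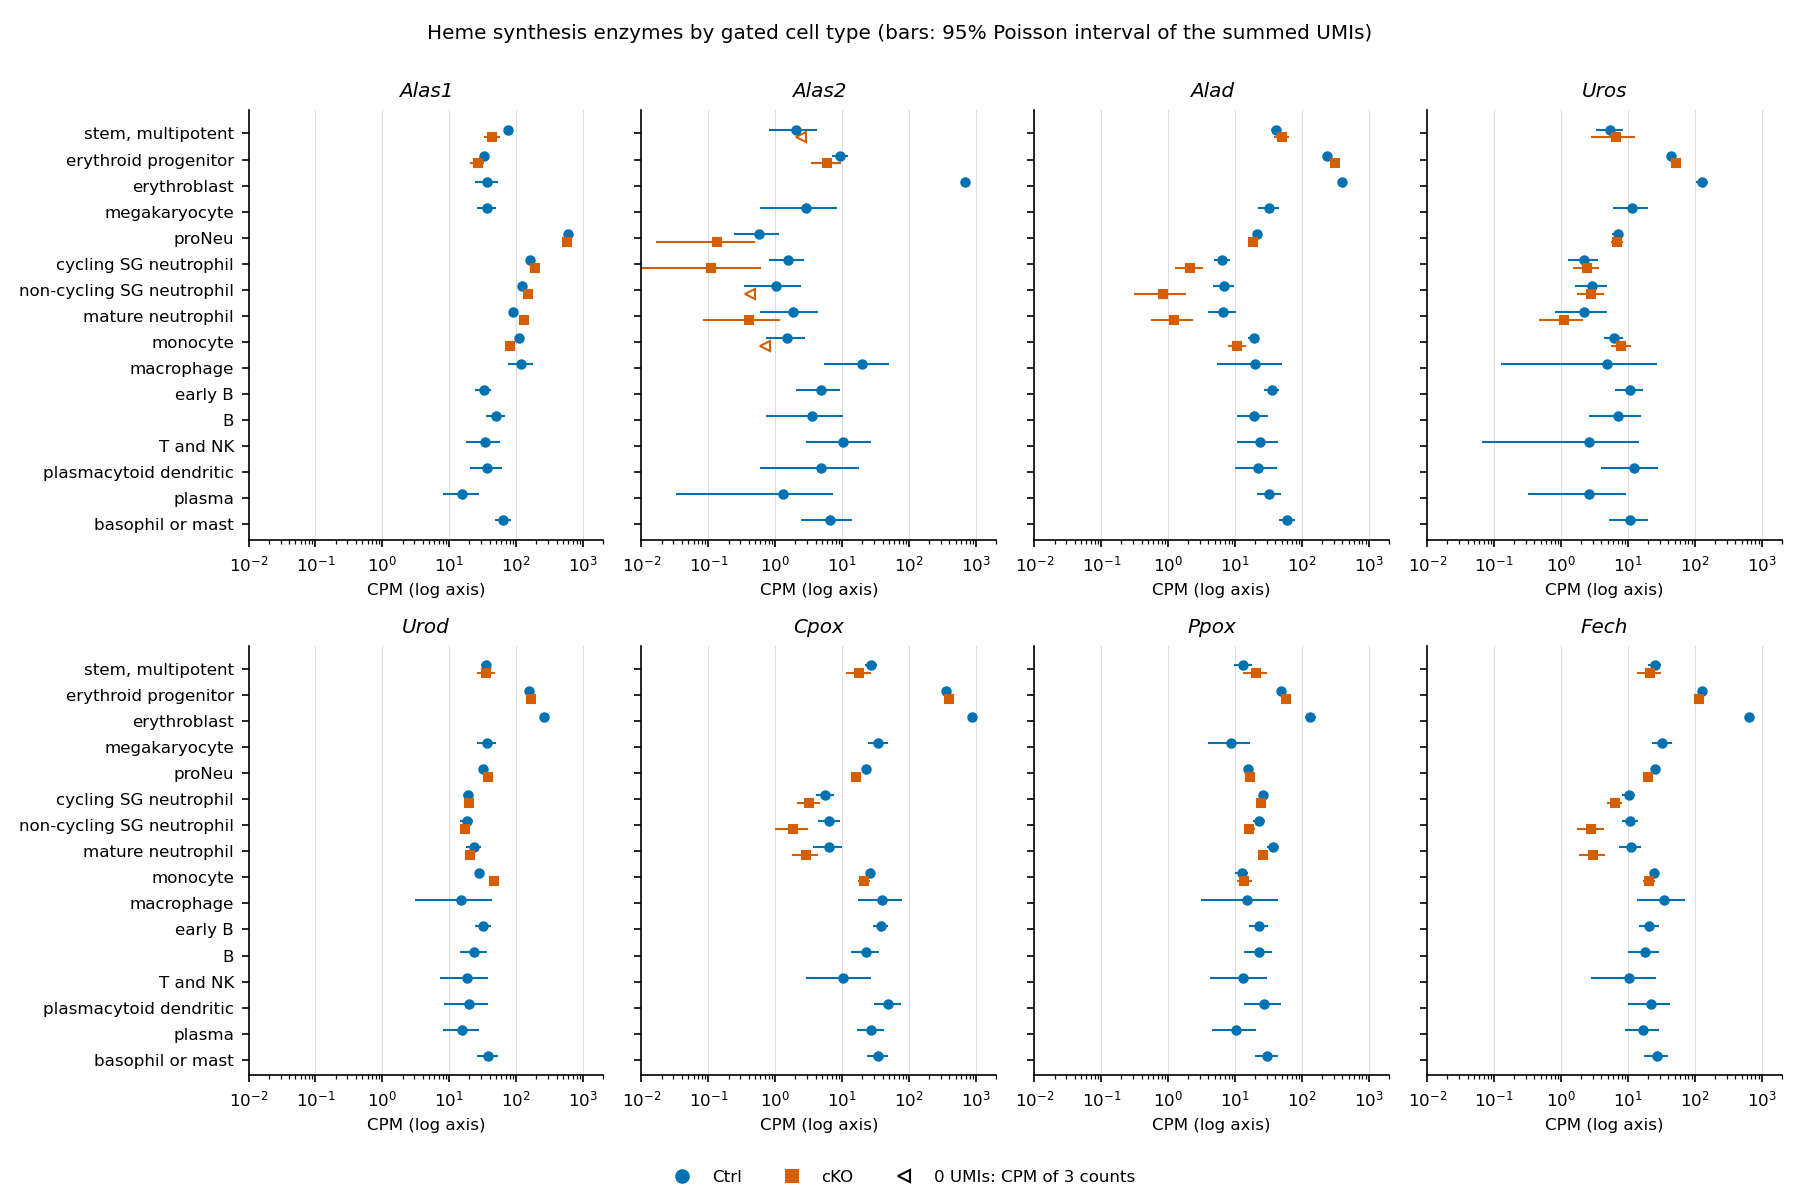
Level of each enzyme (CPM, log axis) in each marker-defined cell type, Ctrl and cKO in separate colors, with exact 95% Poisson intervals of the summed UMIs. Alas1 peaks in proNeu cells at 592 and 575 CPM, and the other 7 genes peak in erythroid cells.

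The erythroid form, Alas2 (ENSMUSG00000025270, chrX:150547375-150570638, plus strand), had the reverse order between proNeu cells and erythroblasts. Erythroblasts held 684 CPM in Ctrl (628 to 744) and 1255 CPM in cKO (1056 to 1480), or 5.69 and 15.7 UMIs per cell. Erythroid progenitors held 9.28 and 5.96 CPM, and proNeu cells 0.567 CPM from 8 UMIs and 0.136 CPM from 2 UMIs. Among the types Alas2 was thus highest in the most hemoglobin-rich one, 73.8-fold above erythroid progenitors in Ctrl (log2 6.20, 5.81 to 6.62). Of all 1128 Alas2 UMIs in the Ctrl library, erythroblasts held 541, erythroid progenitors 57 and the other types together 78. The rest lay in cells placed in no type or not kept. Among the other Ctrl types the highest values, 19.7 CPM in macrophages and 10.4 CPM in T and NK cells, came from 4 UMIs each and could not be told apart from erythroid progenitors. Free RNA from broken cells can give such UMIs. Cells placed in no type, 41.0% of kept Ctrl cells with 0.462% of their UMIs from hemoglobin, entered neither this order nor the ratios below. The other Ctrl types together held 5.08 Alas2 UMIs (4.02 to 6.34) per 1000 hemoglobin UMIs, against 4.97 (4.56 to 5.40) in erythroblasts. The corresponding cKO values were 4.10 (at most 8.92, from 6 UMIs) and 3.15 (2.66 to 3.72). Erythroid progenitors gave 4.20 (3.18 to 5.44) and 2.26 (1.29 to 3.68). In Ctrl these intervals overlapped for all the cells compared, so the ratio does not separate free RNA from expression, and the part of free RNA in the low Alas2 values was not tested.

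The sequences just before the transcript starts of these genes are shown because GATA1, the erythroid regulator, binds a short motif that occurs in such regions. RefSeq (GRCm38.p6) gave windows of 250 bases before the start for 7 of the 8 members, and each was searched on both strands for the word AGATAA, for the word AGATAG, for the word TGATAA and for the word TGATAG. Matches were present in 3 of 10 windows, belonging to Alas2, Cpox and Uros. Of all 32851 windows in the table, 26.5% held at least 1 such word and 6.40% at least 2. Capitals below mark the words, here all on the strand opposite to the one printed. The Alas2 stretch is chrX:150547167-150547374 on the plus strand, with TTATCT 86 bases before the start. The Cpox stretch is chr16:58669958-58670207 on the plus strand, with CTATCT at 91 bases and, overlapping it by a base, TTATCA at 86 bases before the start. The Ppox stretch, chr1:171281187-171281436 on the minus strand, held none and is printed for contrast.
Alas2: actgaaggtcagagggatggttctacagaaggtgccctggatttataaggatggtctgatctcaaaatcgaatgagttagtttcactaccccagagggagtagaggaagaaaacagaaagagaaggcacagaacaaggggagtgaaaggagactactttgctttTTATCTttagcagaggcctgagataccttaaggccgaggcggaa
Cpox: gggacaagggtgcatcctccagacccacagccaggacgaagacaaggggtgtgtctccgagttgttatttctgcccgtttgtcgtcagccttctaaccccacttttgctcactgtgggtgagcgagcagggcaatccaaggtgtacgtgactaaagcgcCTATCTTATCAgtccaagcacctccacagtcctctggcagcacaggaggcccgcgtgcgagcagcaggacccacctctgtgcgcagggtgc
Ppox: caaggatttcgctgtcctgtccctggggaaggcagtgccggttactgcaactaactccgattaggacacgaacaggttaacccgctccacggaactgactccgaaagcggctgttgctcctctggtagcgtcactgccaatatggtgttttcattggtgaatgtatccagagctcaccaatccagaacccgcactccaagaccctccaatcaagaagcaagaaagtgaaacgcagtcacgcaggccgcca
The Uros words, 205 and 68 bases before the start, belonged to a start inside the gene (position 133702500 of chromosome 7), and the window of the outer start held none. No word was found in the windows of Alas1, Alad or Urod, which says only that these letters are absent from them.

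The cytosolic steps came next. Alad (ENSMUSG00000028393, chr4:62509169-62519918, minus strand) encodes the zinc enzyme that joins aminolevulinic acid molecules into porphobilinogen. It was at 393 and 445 CPM in erythroblasts, 234 and 306 CPM in erythroid progenitors, 20.9 and 18.2 CPM in proNeu cells and 6.61 and 1.22 CPM in mature neutrophils. Uros (ENSMUSG00000030979, chr7:133686243-133710072, minus strand), which closes the ring, was the least counted member in Ctrl, with 128 and 89.0 CPM in erythroblasts, 43.8 and 52.2 CPM in erythroid progenitors and 7.02 and 6.88 CPM in proNeu cells. Urod (ENSMUSG00000028684, chr4:116989965-116994413, minus strand), which takes carboxyl groups off the side chains, stood at 258 and 276, 156 and 164, and 32.4 and 38.3 CPM in the same order. All 3 thus followed the order erythroblast, erythroid progenitor, proNeu in both libraries. Outside the erythroid types most neighbors of the Ctrl order could not be told apart for any of them, with exceptions such as Alad in basophils or mast cells (59.4 CPM) above stem and multipotent progenitors (40.3 CPM).

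The last steps lie in the mitochondrion. Cpox (ENSMUSG00000022742, chr16:58670292-58717636, plus strand), which encodes coproporphyrinogen oxidase, reached 879 CPM in Ctrl erythroblasts (815 to 947) and 863 CPM in cKO ones, with 360 and 391 CPM in erythroid progenitors and 22.6 and 16.0 CPM in proNeu cells. Ppox (ENSMUSG00000062729, chr1:171275990-171281186, minus strand), protoporphyrinogen oxidase, was at 133 and 125, 49.1 and 56.7, and 15.4 and 16.7 CPM. Fech (ENSMUSG00000024588, chr18:64452914-64490251, minus strand), ferrochelatase, was at 636 and 917, 126 and 116, and 25.2 and 19.7 CPM. Ppox had the flattest order: in Ctrl, mature neutrophils came next after the erythroid types at 37.1 CPM, and proNeu cells were below them. Alas1, Alas2, Uros, Cpox and Ppox share bases with genes on the opposite strand (Alas2 along its whole length with Apex2), and the sources used here do not state whether strand was used in counting. Levels of different genes are UMIs near the 3′ end and not per length, so that they order cell types within a gene better than genes within a cell type.

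Erythroblasts exceeded erythroid progenitors in 7 of the 8 genes in Ctrl, with counting intervals above 0 on the log2 scale, as did 12.1% of the 10699 genes with at least 10 UMIs over both sums. The largest of these steps were Alas2 and Fech, the latter 5.06-fold (log2 2.34, 2.17 to 2.50), followed by Uros (2.92-fold), Ppox (2.70-fold), Cpox (2.44-fold), Alad (1.68-fold) and Urod (1.65-fold). Alas1 was the exception at log2 0.14 (-0.47 to 0.71). In cKO the 9 erythroblasts gave log2 7.72 (6.97 to 8.56) for Alas2 and 2.99 (2.65 to 3.31) for Fech, while the interval for Uros, 0.77 (-0.32 to 1.69), included 0. The step from stem and multipotent progenitors to erythroid progenitors had another profile in Ctrl. Cpox differed most there, 13.3-fold (log2 3.73), then Uros (log2 3.00), Alad (2.54), Fech (2.33) and Alas2 (2.20), and Alas1 was lower by log2 -1.17.

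Erythroid cells, progenitors and erythroblasts summed, were then compared with proNeu cells. Every gene with at least 10 UMIs over both sums was compared, and all 8 members passed that limit. In Ctrl, 7 members were more than 2-fold higher in erythroid cells, a side that held 16.3% of the 12352 genes compared, and Alas1 was more than 2-fold lower, as were 19.6% of genes. The same members fell on the same sides in cKO, where the background was 19.8% higher and 21.3% lower of 11777 genes. Both libraries together placed 12.7% of 11662 genes on the higher side and 16.7% on the lower. The study's own marker list named several of these enzymes for such cell types, so the split itself is not independent evidence of a direction.

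Alas1 was 17.6-fold lower in erythroid than in proNeu cells in Ctrl (log2 -4.14, -4.33 to -3.95) and 21.4-fold lower in cKO (log2 -4.42, -4.77 to -4.09). Alas2 was 152-fold higher in Ctrl (log2 7.25, 6.26 to 8.47) and 412-fold higher in cKO (log2 8.69, 6.81 to 11.75), values that rest on the 8 and 2 UMIs in proNeu cells. They also rest on the 95 and 9 erythroblasts, which held 541 of 598 and 141 of 157 erythroid Alas2 UMIs. Erythroid progenitors alone were 16.4-fold (log2 4.03, 2.96 to 5.31) and 43.8-fold (log2 5.45, 3.36 to 8.62) above proNeu cells. The gap between the genes for the first step therefore opened in opposite directions. Among the shared steps Cpox was highest, 18.5-fold in Ctrl (log2 4.21, 4.04 to 4.38) and 25.6-fold in cKO (log2 4.68, 4.47 to 4.89), and Alad followed at 12.1-fold and 17.1-fold. Fech was 7.31-fold and 7.48-fold higher, Uros 7.60-fold and 7.80-fold, and Urod 5.17-fold and 4.39-fold. Ppox showed the smallest difference, 3.82-fold (log2 1.93, 1.69 to 2.18) and 3.55-fold (log2 1.83, 1.53 to 2.12). Scaling to the median gene would lower these log2 values by 0.17 in Ctrl and 0.38 in cKO and left every sign as it was. Averaging each cell's own CPM instead of summing moved Alas1 in cKO to log2 -2.82 and Fech in Ctrl to 3.87.

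**Figure D2:**
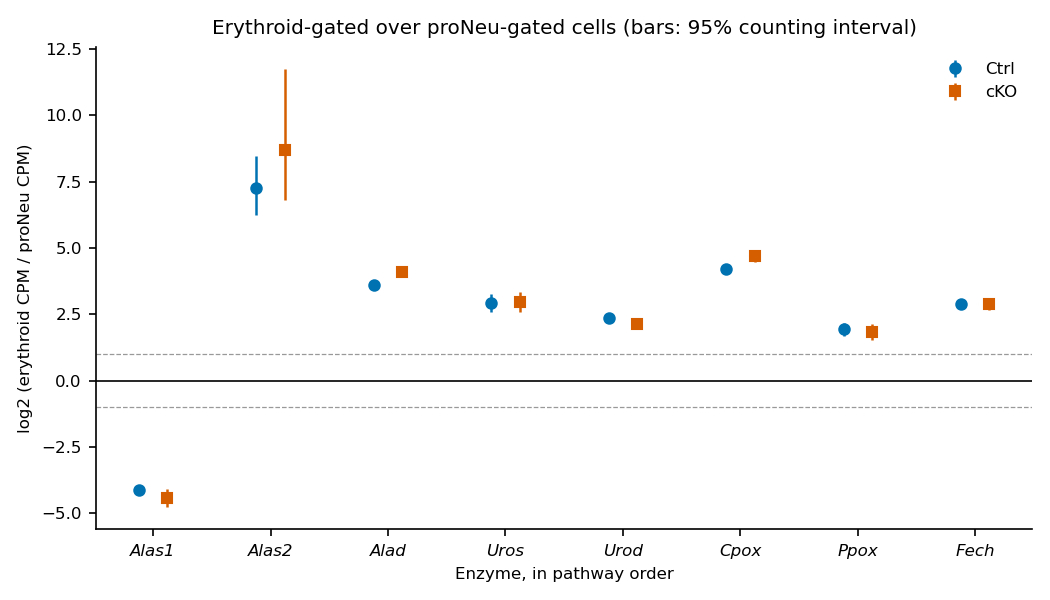
The log2 ratio of erythroid to proNeu CPM for each enzyme in pathway order in both libraries, where bars are 95% counting intervals and dashed lines mark 2-fold. Alas1 is the only point pair below 0, at -4.14 and -4.42, and Alas2 is highest, at 7.25 and 8.69.

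Some Mpo RNA was found in erythroid cells too, at 380 CPM in Ctrl and 87.3 CPM in cKO against 11554 and 10999 CPM in proNeu cells. These sums hold 2632 and 244 Mpo UMIs beside 233 and 75 Alas1 UMIs in erythroid cells, and 163006 and 161543 Mpo UMIs beside 8350 and 8441 Alas1 UMIs in proNeu cells. The part of proNeu RNA in the low erythroid Alas1 level was not tested. Hemoglobin made up 0.0186% of the UMIs of Ctrl proNeu cells and 0.00229% of those of cKO proNeu cells.

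The same contrast was seen cell by cell once depth was made equal. With each cell thinned once, at random, to 1000 UMIs, 43.5% of Ctrl proNeu cells (40.1% to 47.0%) and 38.6% of cKO proNeu cells (35.1% to 42.2%) had an Alas1 UMI, against 3.47% and 3.33% of erythroid cells. Before thinning the proNeu shares were 94.7% and 77.0%, and 13 and 122 proNeu cells were too shallow to thin. Alas2 was found in 47.0% of thinned Ctrl erythroblasts (35.9% to 58.3%) and in 0 of 825 thinned Ctrl proNeu cells, which at this depth allows a share of up to 0.446% by the exact interval. Before thinning, 8 of the 838 Ctrl proNeu cells (0.955%) and 74.7% of Ctrl erythroblasts held an Alas2 UMI. Cpox was found in 29.8% and 26.7% of thinned erythroid cells against 2.55% and 1.07% of proNeu cells, and Fech in 21.1% and 11.1% against 2.18% and 3.06%. The other shared enzymes likewise had the higher share in erythroid cells of both libraries, at 1000 and at 500 UMIs. This went down to Uros, with 1.08% against 0.802% in cKO at 500 UMIs. That erythroid share was taken from at most 93 cells, too few to read a direction from.

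The mix of enzymes also differed between the cell types. Alas1 made up 82.7% of the UMIs of all 8 members in Ctrl proNeu cells (81.9% to 83.4%) and 83.2% in cKO proNeu cells, where the 8 genes summed to 716 and 691 CPM. Erythroid progenitors had sums of 1011 and 1117 CPM, of which Cpox was 35.6% and 35.0%, Alad 23.2% and 27.4%, and Alas1 3.28% and 2.37%. The sum was thus lower in proNeu cells than in progenitors of the red lineage, and a single gene carried most of it. Erythroblasts summed to 3148 and 4004 CPM, with Cpox at 27.9% and 21.6%, Alas2 at 21.7% and 31.3% and Fech at 20.2% and 22.9%. In mature neutrophils Alas1 took 50.7% and 70.8% and Ppox 20.7% and 13.9%.

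Within the erythroid cells the members were followed along the share of each cell's UMIs that came from hemoglobin genes, a measure of red cell maturity that the gates did not use. The Ctrl cells fell into 222 cells under 0.1%, 96 from 0.1 to 1%, 68 from 1 to 10% and 39 at 10% or more, and the cKO cells into 62, 18, 6 and 7. Alas2 was at 2.35, 10.6, 163 and 2142 CPM along these bins in Ctrl and at 1.72, 6.80, 96.7 and 1618 CPM in cKO. Fech, which acts last, went from 84.7 over 188 and 496 to 1035 CPM in Ctrl and from 83.7 over 158 and 257 to 1156 CPM in cKO. Both genes were thus higher in each successive bin of each library.

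Some other members were lower in the last bin when hemoglobin was counted in the total. Cpox was at 276, 499, 942 and 756 CPM in Ctrl and 293, 554, 753 and 617 CPM in cKO. Alad was at 188, 332, 432 and 255 CPM in Ctrl and 265, 352, 568 and 167 CPM in cKO, so that both were lower in the last bin than in the one before. For Cpox the intervals of these bins overlapped in each library, and for Alad they did not. Hemoglobin took 43.9% of the UMIs of the last Ctrl bin. With hemoglobin left out of the total, the last 2 Ctrl bins read 973 and 1347 CPM for Cpox and 447 and 455 CPM for Alad, so that neither was lower there. In cKO they read 772 and 1350 CPM for Cpox and 582 and 366 CPM for Alad. Uros (26.3, 74.2, 146 and 96.3 CPM) and Ppox (35.2, 77.7, 133 and 111 CPM) also read lower in the last Ctrl bin than in the one before. Their intervals in these bins overlapped, at 120 to 176 and 58.8 to 149 CPM for Uros. For Ppox they were 108 to 161 and 70.2 to 166 CPM. With hemoglobin left out the bins read 151 and 172 CPM for Uros and 137 and 197 CPM for Ppox. No direction is read from these bins for either gene. Urod was higher in each successive Ctrl bin, at 127, 207, 270 and 303 CPM. In cKO Uros was at 30.4, 83.0, 122 and 89.9 CPM and Urod at 149, 197, 185 and 270 CPM. Ppox there was at 41.8, 85.7, 71.5 and 167 CPM, so it was highest in the last bin. Alas1 was at 37.3, 24.1, 36.5 and 24.1 CPM in Ctrl and did not follow hemoglobin. In cKO Alas1 was at 29.8, 24.5, 8.41 and 38.5 CPM, with only 2 and 3 UMIs in the last bins. From the lowest to the highest bin, 5 members (Alas2, Uros, Cpox, Ppox and Fech) were more than 2-fold higher in both libraries, as were 3.63% of the 8514 genes with at least 10 UMIs over these bins in each library. With hemoglobin left out, 6 members were, against 8.77% of genes.

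**Figure D3:**
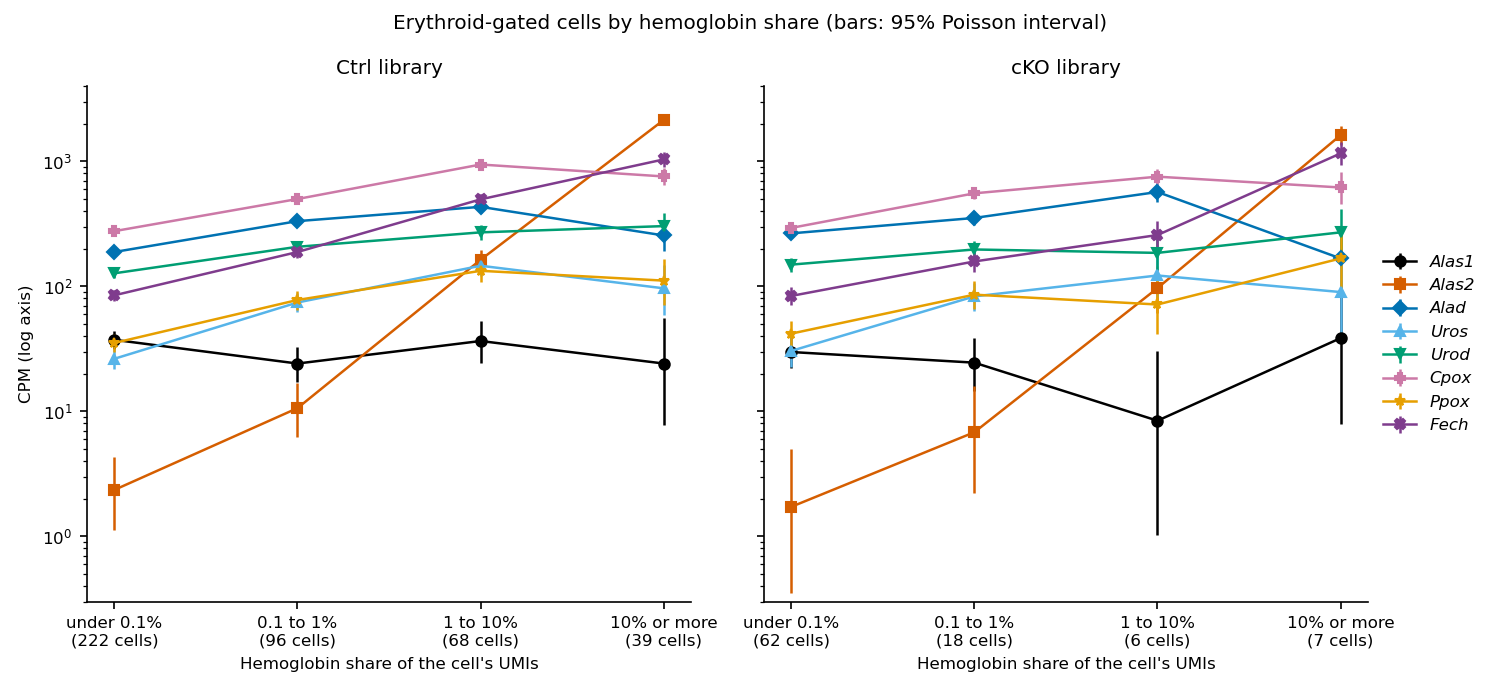
Level of the 8 enzymes (CPM, log axis) in erythroid cells grouped by the hemoglobin share of their UMIs, 1 panel per library, with 95% Poisson intervals and the number of cells under each bin. Alas2 goes from 2.35 to 2142 CPM in Ctrl, Fech from 84.7 to 1035 CPM, and Alas1 stays between 24.1 and 37.3 CPM.

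Within proNeu cells the members were followed along the Mpo share of UMIs, in 4 groups of equal size (209 or 210 cells in Ctrl, 218 or 219 in cKO). Alas1 was at 475 CPM (452 to 500), 559, 674 and 670 CPM (640 to 700) from the group with least to that with most Mpo in Ctrl. In cKO the groups gave 376 CPM (349 to 404), 484, 606 and 713 CPM (687 to 739). Alas1 was thus higher in Mpo-rich proNeu cells of both libraries. Fech went the same way, from 17.1 to 32.1 CPM in Ctrl and from 13.6 to 22.2 CPM in cKO, and Cpox from 9.44 to 18.7 CPM in cKO. In Ctrl Cpox was at 16.8, 23.6, 26.2 and 23.3 CPM. Alad was at 23.5, 25.9, 16.4 and 16.2 CPM in Ctrl and at 16.2, 19.1, 19.8 and 16.5 CPM in cKO. From the lowest to the highest group Uros went from 6.71 to 5.74 CPM in Ctrl and from 6.29 to 8.12 CPM in cKO. Urod went from 27.4 to 32.1 CPM and from 31.5 to 44.1 CPM. Ppox was at 16.5, 13.8, 14.8 and 17.2 CPM in Ctrl and at 23.6 CPM in the first group, 13.8 CPM in the third and 18.7 CPM in the last in cKO. The lowest groups also held more RNA of Camp, a secondary granule gene, at 15681 and 27096 CPM against 1954 and 1643 CPM in the highest, and the lowest cKO group had a median of only 1495 UMIs per cell. The part of neutrophil maturation, free RNA or depth in these differences was not tested.

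Along the later neutrophil types Alas1 was lower at each step. Against proNeu it was 3.74-fold lower in cycling secondary granule neutrophils of Ctrl and 3.01-fold lower in those of cKO, and 6.53-fold (log2 -2.71) and 4.34-fold (log2 -2.12) lower in mature neutrophils. Non-cycling secondary granule neutrophils lay between, at 122 and 151 CPM, and mature neutrophils were at 90.7 and 132 CPM. Ppox went the other way, 2.41-fold higher in mature neutrophils than in proNeu cells of Ctrl (log2 1.27, 0.91 to 1.62) and 1.55-fold higher in cKO (log2 0.63, 0.35 to 0.91). Urod differed by log2 -0.49 and -0.93, and Alad, Uros, Cpox and Fech were all lower in mature neutrophils. The median of all genes was itself lower by log2 -0.48 and -0.64 in mature neutrophils, so relative to it Ppox stood higher still and Urod in Ctrl was close to it.

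**Figure D4:**
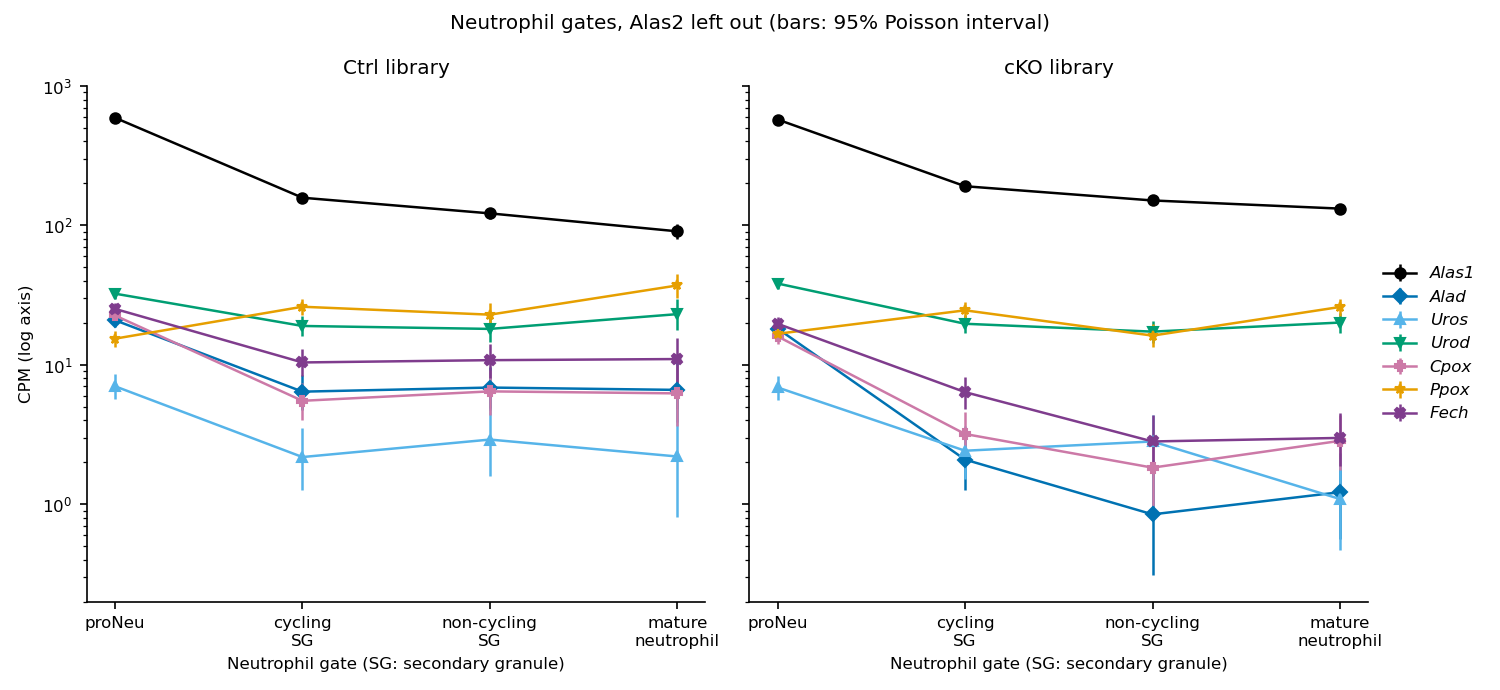
Level of 7 enzymes (CPM, log axis) in proNeu cells, cycling and non-cycling secondary granule neutrophils and mature neutrophils, 1 panel per library, with 95% Poisson intervals. Alas1 goes from 592 to 90.7 CPM in Ctrl and from 575 to 132 CPM in cKO, while Ppox goes from 15.4 to 37.1 CPM and from 16.7 to 26.0 CPM. Alas2 is left out because of its low counts there, 5 to 12 UMIs per type in Ctrl and 0 to 3 in cKO.

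Other genes of heme and iron handling were read from lists, in the same contrast of erythroid over proNeu cells. Of all genes compared in both libraries, 12.7% were more than 2-fold higher and 16.7% more than 2-fold lower in erythroid cells. These shares are the background for every list count below. Of 15 genes of mitochondrial transport and iron-sulfur supply, 8 were more than 2-fold higher in both libraries and 1 lower, with median log2 ratios of 1.37 and 1.18 against 0.10 and 0.22 over all genes compared. The higher ones included Slc25a38, the mitochondrial glycine carrier that feeds the first step (log2 2.30 and 2.70), Tmem14c, a porphyrinogen transporter (1.70 and 1.71), and Glrx5, which serves iron-sulfur cluster assembly (2.46 and 2.70). Tspo and its paralog Tspo2 split, with Tspo2 at 6.03 and 9.05 and Tspo at -1.61 and -2.14. The Tspo2 values rest on only 26 and 4 UMIs in proNeu cells. Slc25a37, the mitochondrial iron importer mitoferrin 1, was at 1.37 and 0.85 and so passed 2-fold in Ctrl alone. Progenitors gave most UMIs of the summed erythroid cells (6144521 of 6935159 in Ctrl, 2682610 of 2794984 in cKO), so these ratios mainly describe progenitors. In erythroblasts Slc25a37 was at 899 and 765 CPM, against 58.8 and 53.3 CPM in erythroid progenitors and 59.8 and 45.4 CPM in proNeu cells.

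Of 10 genes of iron uptake and storage 5 were higher, 1 was lower and 4 (Ftl1, Slc40a1, Pcbp1 and Pcbp2) passed 2-fold in neither direction (medians 1.23 and 1.37). Transferrin receptor genes Tfrc (2.16 and 2.51) and Tfr2 (4.53 and 4.13) were higher, as was Slc11a2, which encodes the iron transporter DMT1 (3.16 and 3.28), and Ncoa4, the receptor that sends ferritin to degradation, was lower (-1.58 and -1.89). Of 7 genes of heme export and breakdown that could be compared, 3 were higher and 1 lower. Blvrb, a biliverdin reductase, was at 5.75 and 6.57 and Hmox2, the constitutive heme oxygenase, at -1.29 and -1.33. Flvcr2 had too few UMIs.

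Of 11 regulators 5 were higher and none lower. Gata1 (7.06 and 9.04) and Klf1 (6.56 and 9.18) were markers of the gate and say nothing further. The others were Zfpm1, a GATA1 partner (5.64 and 7.64), Tal1 (3.76 and 4.13) and Eif2ak1, the heme-sensing kinase that restrains translation (1.35 and 1.22). Few proNeu UMIs lay under the Gata1 (14 and 4), Klf1 (32 and 7) and Zfpm1 (39 and 10) ratios. Of 10 genes of heme-carrying proteins that could be compared, 4 were higher, 3 lower and 3 neither in both libraries (medians 0.72 and 0.85). The 4 globin genes were higher (Hba-a1 at 6.78 and 9.89, from 536 and 66 UMIs in proNeu cells). Mpo, a gate marker, and Cybb and Cyba, the subunits of the phagocyte oxidase cytochrome, were lower (Cybb at -1.69 and -2.65, Cyba at -2.60 and -3.24). Catalase (Cat, 0.74 and 0.63) and the cytochrome genes Cycs (-0.32 and 0.31) and Cyc1 (0.70 and 1.07) did not pass in both libraries, and Epx could not be compared.

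Genes with the most similar pattern were ranked by Pearson's r of log2(CPM + 1) over the 23 sums of cell type and library with at least 50 cells, among 11638 genes. These points share 2 libraries, and r is a description only. Alas1 was most like B4galt6 (0.910), Anxa3 (0.887) and Dstn (0.878), and it was negatively related to all 7 other members (-0.55 to -0.19). Alas2 was most like Slc4a1, a marker of the erythroblast gate (0.951), Hbb-bs (0.946) and Hba-a2 (0.933). Some later enzymes ranked one another: Fech and Cpox were each other's closest gene (0.965), Cpox was among the closest to Uros (0.944), and Alad among the closest to Cpox (0.945). The 3 closest genes of Alad, of Urod and of Ppox held no other member. Ubac1 was among the 3 closest for Alad, Uros, Cpox and Fech (0.946 to 0.956). Ppox was less closely matched, with Slc6a20a (0.877) first, and Urod was closest to 2600006K01Rik (0.948).

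The library labelled cKO was set against the library labelled Ctrl within 7 cell types, which asks whether loss of Map4k4 goes with other levels of these enzymes. Whether the controls also received poly I:C is not stated, so its part in these differences cannot be told apart. Levels past 2-fold were found in 11 of 53 member and cell type pairs, and 25 counting intervals excluded 0, 7 with higher and 18 with lower cKO levels. Over all genes tested in these types 8.49% of intervals lay above 0 and 34.7% below. On scaling to the median gene 24 intervals excluded 0, 13 with higher and 11 with lower cKO levels (18.2% and 16.3% over all genes), and 18 pairs did so under both scalings, so the balance toward lower levels was not kept. None of 7 members passed 2-fold in stem and multipotent progenitors, where 9.06% of genes did, and none of 8 in erythroid progenitors (10.8%). In proNeu cells 1 of 8 passed (7.10%), in cycling secondary granule neutrophils 2 of 8 (10.2%), in non-cycling ones 3 of 7 (16.6%), in mature neutrophils 4 of 7 (24.7%) and in monocytes 1 of 8 (10.7%). The shares were highest in the types where most genes moved. Passing 2-fold did not always mean an interval off 0. The 1 member in proNeu cells was Alas2, from 8 Ctrl and 2 cKO UMIs (log2 -2.06, -5.33 to 0.27). Uros in mature neutrophils, from 6 and 8 UMIs, was at log2 -1.02 (-2.73 to 0.79). The summed erythroid cells were not compared between libraries, since they held 95 Ctrl but 9 cKO erythroblasts.

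In proNeu cells Alas1 was at log2 -0.04 (-0.09 to 0.00), or 0.24 once scaled to the median gene, which was at -0.28. It was lower in the cKO-labelled stem and multipotent progenitors, 43.9 against 74.6 CPM (log2 -0.77, -1.22 to -0.34), and in monocytes, 80.9 against 109 CPM (log2 -0.43, -0.62 to -0.25). It was higher in cycling secondary granule neutrophils (log2 0.27, 0.17 to 0.38), in non-cycling ones (0.31, 0.17 to 0.46) and in mature neutrophils (0.55, 0.34 to 0.75). In all 3 the median gene was lower, by log2 -0.31 to -0.47. When cells were clustered, the clusters named mature neutrophil held 714 Ctrl and 51 cKO cells, 46 and 601, and 12 and 459. The mature neutrophils of the libraries thus lay largely in separate clusters, and the part of this split in their differences was not tested. The sign of the Alas1 value thus differed between cell types. Mpo, a proNeu marker, was at 375 CPM in Ctrl and 85.4 CPM in cKO erythroid progenitors. The part of stray proNeu RNA in the lower Alas1 values of stem and multipotent progenitors and monocytes was not tested. In erythroid progenitors Alad was higher, 306 against 234 CPM (log2 0.38, 0.26 to 0.51), while Fech (-0.12, -0.32 to 0.07), Urod (0.07, -0.10 to 0.23) and Alas1 (-0.33, -0.74 to 0.07) had intervals that included 0. Cpox there was at log2 0.12 (0.01 to 0.23), and this sign turned when each cell's CPM was averaged or clusters replaced the gates.

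The larger values were lower levels in neutrophils that make little of these RNAs. Alas2 in cycling secondary granule neutrophils was lowest, at log2 -3.81 (-9.23 to -1.05), but from 12 Ctrl and 1 cKO UMIs. Alad was at 0.846 against 6.87 CPM in non-cycling secondary granule neutrophils (log2 -3.02, -4.57 to -1.75) from 6 and 33 UMIs, and at log2 -2.43 (-3.77 to -1.20) in mature neutrophils. Fech was at -1.94 (-2.76 to -1.17) and -1.88 (-2.74 to -1.04) and Cpox at -1.82 (-2.87 to -0.84) and -1.13 (-2.12 to -0.12) in the same types. These are genes that erythroid cells hold in abundance. Hemoglobin RNA was also lower there, at 0.00245% against 0.0290% of UMIs in non-cycling secondary granule neutrophils and 0.00514% against 0.0572% in mature neutrophils. Whether it came from free erythroid RNA, and the part of such RNA in these differences, was not tested. Median depth was 2293 UMIs per Ctrl and 6172 per cKO mature neutrophil, and these cells lay largely in separate clusters, as given above. Urod was at -0.06 and -0.20 in these types with intervals that included 0, and in monocytes it was higher, 46.1 against 27.9 CPM (log2 0.73, 0.43 to 1.02).

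**Figure D5:**
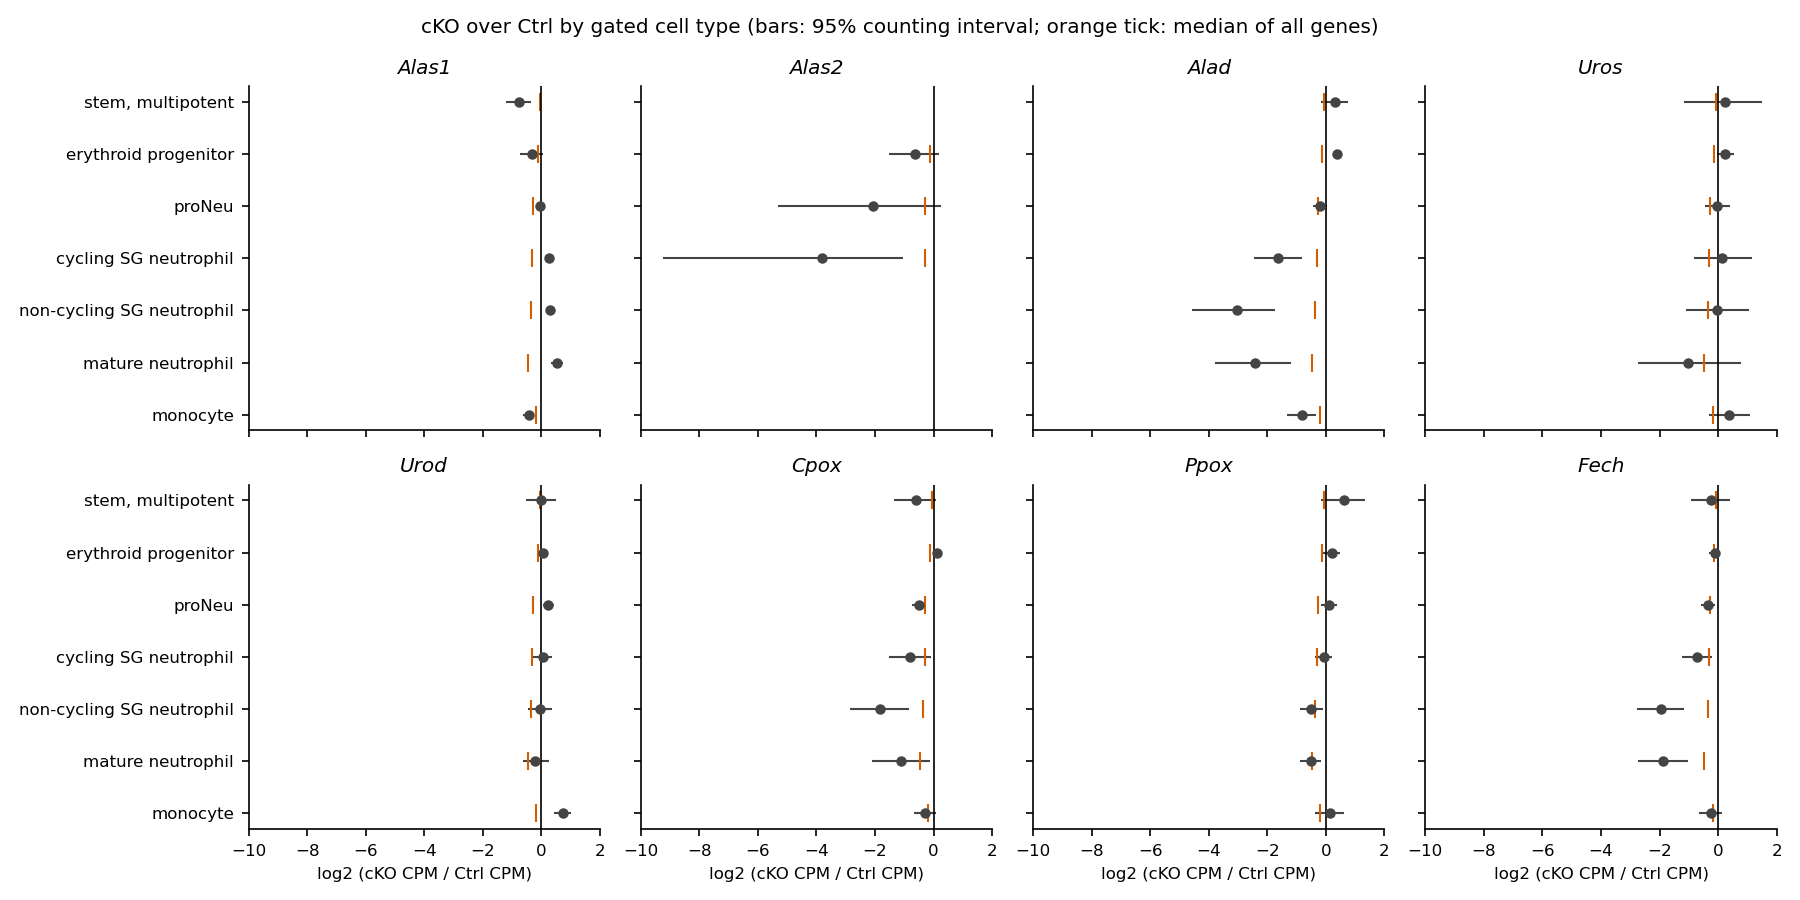
The log2 ratio of cKO to Ctrl CPM of each enzyme in the 7 cell types compared, with 95% counting intervals as bars and the median of all genes as an orange tick. Alas1 ranges from -0.77 in stem and multipotent progenitors to 0.55 in mature neutrophils, and Alad reaches -3.02 in non-cycling secondary granule neutrophils. Alas2 in monocytes, with 10 UMIs in Ctrl and 0 in cKO, has no point.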

How the data were processed

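Per the submitters' processing notes the authors aligned the reads with Cell Ranger 5.0.0 to mm10 and deposited, for each library, a matrix of UMI counts per gene and cell (BMKMANU DG1000 3′ kit libraries); whether strand was used is not given in the sources used here. The deposited counts were used as they stand. A cell was kept if 200 to 9000 genes were detected in it and its mitochondrial share was no more than 30%, which left more cells than the study describes. Doublets were not called. Cells were scored with 127 marker genes found of 128 listed (Ahsp was absent) by the mean z-score of log-normalized counts per 10000 (bounded at -3 and 6) and gated to the top class at a score of at least 1, a lead of at least 0.5 and at least 3 detected markers, which placed 59.0% of Ctrl and 54.7% of cKO cells. Secondary granule neutrophils were split at a cell cycle score of 0.3. UMIs were summed per type and library and given as CPM with exact intervals, since 1 library per genotype allows no test. A gene was called past 2-fold with at least 10 UMIs over both sums. The genes named are all 8 members, the fixed lists, the 3 genes most correlated with each member (of those with at least 100 UMIs) and Map4k4. The members and lists were chosen with earlier results of these data known. Alternatives tried were other scalings and totals, cell filters, gates, clusters and thinning depths. Promoter sequences came from RefSeq, which has no Fech window in the table used, and positions from GENCODE vM21; Alas1 windows lie in annotated exons and are not printed. The fold calls and counting intervals of the erythroid over proNeu contrast were tested on simulated Poisson sums, without variation between cells or libraries. Other steps were not tested in this way. Analyses used Python 3.11.15 with leidenalg 0.10.2, igraph 0.11.9, scikit-learn 1.9.0, matplotlib 3.10.9, pandas 2.3.3, SciPy 1.17.1 and NumPy 2.4.6.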

Additional observations from a re-analysis of the deposited data

Results flagged for a closer look

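The cKO over Ctrl difference of 3 members pointed in opposite ways in different cell types, with counting intervals off 0 on each side. The difference between cell types was itself not tested, because each genotype has 1 library. Alas1 was at log2 0.55 in mature neutrophils, which mostly clustered apart by library, and at -0.77 in stem and multipotent progenitors. Alad was at 0.38 in erythroid progenitors and at -3.02 in non-cycling secondary granule neutrophils. Cpox was at 0.12 in erythroid progenitors, where other ways of averaging turned the sign, and at -1.82 in non-cycling secondary granule neutrophils.

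Cells that were too few to enter any comparison also held a signal. In cells gated as eosinophils, which make the heme enzyme eosinophil peroxidase, Alas1 stood at 369 CPM (247 to 530, 29 UMIs) in the 4 Ctrl cells and at 335 CPM (199 to 530, 18 UMIs) in the 6 cKO cells. An Alas1 UMI was found in all 4 Ctrl and in 3 of 6 cKO cells. The class next to eosinophil in median score was proNeu in both libraries, at 1.31 (Ctrl) and 0.92 (cKO), and the 7 proNeu markers summed to 23444 and 12920 CPM in these cells. The 6 eosinophil markers summed to only 2913 and 7595 CPM, and Ear1, Ear2 and Ear6 were not found in Ctrl. Secondary granule markers summed to 2239 CPM in Ctrl and 49556 CPM in cKO, so the name eosinophil is uncertain. Doublets were not called, and the part of proNeu or later neutrophil RNA in these Alas1 values was not tested.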

How the results depend on the processing

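The split of 7 members higher and 1 lower in erythroid than in proNeu cells was the same under every alternative tried except the demand for 10 UMIs in both sums, which left 6 of 7 because Alas2 had too few in proNeu cells. Over the 9 alternatives, 119 of 143 values of that contrast stayed within their counting interval, 24 moved beyond it and 0 changed sign. The range was -4.31 to -3.68 (Ctrl) and -4.80 to -2.82 (cKO) for Alas1, and 5.55 to 9.42 and 7.58 to 9.67 for Alas2. The lowest Ctrl value of Alas2 came with clusters in place of gates. Keeping only cells with at least 2000 UMIs, an alternative chosen after seeing the data, gave 9.67 for Alas2 in cKO. With clusters, Alas2 in cKO had 0 UMIs in proNeu cells and no value. Of 464 cKO over Ctrl values, 429 stayed within their interval, 32 moved beyond it, and 3 with an interval off 0 changed sign. The sign turned for Cpox in erythroid progenitors (0.12), to -0.08 with the mean over cells of each cell's CPM and to -0.02 with clusters, and for Urod in proNeu cells (0.24), to -0.17 with the mean over cells. The cause was not tested. No paired analysis was possible because each genotype has 1 library, and for the same reason no replicate could be left out. Depth limits Alas2 outside erythroid cells, Uros beyond the erythroid and proNeu sums, and the 9 cKO erythroblasts.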
